A study of Mus musculus with 9 samples.

Results

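The aryl hydrocarbon receptor (AhR), its dimer partner and a set of genes it is known to regulate or to act beside were followed through a mouse RNA-seq series. The set was 10 genes, Ahr, Arnt, Ahrr, Tiparp, Cyp1a1, Cyp1a2, Cyp1b1, Aldh3a1, Nqo1 and Ephx1, picked by symbol from the 55359 genes of the deposited table. Melanocyte stem cells, the reserve from which the pigment cells of the hair follicle are renewed, were isolated by flow sorting from mouse skin, and 9 libraries were made. All 9 carried 1 knocked-in copy of a Dct-H2B-GFP reporter (genotype Dct-H2B-GFP KI/+), in which a nuclear green fluorescent protein is tied to the pigment gene Dct. The vehicle group (3 libraries) received vehicle, the IR group (3 libraries) 5 Gy of ionizing radiation, and the DMBA group (3 libraries) 7,12-dimethylbenz[a]anthracene, a polycyclic aromatic hydrocarbon. The labels give no age, no time from treatment to sorting, no dose or route of DMBA and no sham irradiation. Whether a replicate was its own animal is also not given, and the tests therefore measure the spread among libraries, which may be technical.

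AhR is a transcription factor that rests in the cytoplasm with HSP90 and co-chaperones until a ligand, such as a polycyclic aromatic hydrocarbon, binds it. The ligand-bound receptor enters the nucleus, pairs with ARNT and binds response elements whose core reads GCGTG. Its best known targets are cytochromes P450 that oxidize the ligand itself, and in mice CYP1B1 and the epoxide hydrolase EPHX1 take part in turning DMBA into reactive diol epoxides.

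Promoter sequence is shown for the matched members whose DMBA or IR libraries all lay above vehicle, called or not, to show where the core element lies in them. RefSeq promoters (build GRCm38.p6) were matched by symbol for 8 of the 10 members, and the window shown is the 250 bases upstream of the annotated start, 5′ to 3′ on the gene's strand. These coordinates are RefSeq's and differ from those of the deposited table, which are used for the gene positions given with each gene. Capitals mark each GCGTG, or CACGC where the core lies on the opposite strand. Cyp1a1 (chr9:57697363-57697612, plus strand), Cyp1b1 (chr17:79715062-79715311, minus strand) and Tiparp (chr3:65528197-65528446, plus strand) were called higher with DMBA. Ahrr (chr13:74292332-74292581, minus strand) and Nqo1 (chr8:107403206-107403455, minus strand) were not called but lay above vehicle in all 3 DMBA libraries, and Ephx1 (chr1:181017570-181017819, minus strand) rose after IR.
Cyp1a1: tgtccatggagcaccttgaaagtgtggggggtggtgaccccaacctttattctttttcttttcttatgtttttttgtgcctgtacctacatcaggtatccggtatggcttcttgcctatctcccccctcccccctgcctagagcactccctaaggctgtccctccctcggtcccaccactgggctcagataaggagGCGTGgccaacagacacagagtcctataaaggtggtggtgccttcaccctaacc
Cyp1b1: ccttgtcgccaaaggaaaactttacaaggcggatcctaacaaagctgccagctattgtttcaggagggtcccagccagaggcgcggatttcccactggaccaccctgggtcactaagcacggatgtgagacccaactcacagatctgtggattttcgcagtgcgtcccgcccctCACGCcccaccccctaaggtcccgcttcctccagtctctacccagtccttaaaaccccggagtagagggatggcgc
Tiparp: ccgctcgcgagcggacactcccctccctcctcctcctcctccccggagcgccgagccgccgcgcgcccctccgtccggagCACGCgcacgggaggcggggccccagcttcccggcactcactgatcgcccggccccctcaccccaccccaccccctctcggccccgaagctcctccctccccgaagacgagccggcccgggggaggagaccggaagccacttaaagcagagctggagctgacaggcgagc
Ahrr: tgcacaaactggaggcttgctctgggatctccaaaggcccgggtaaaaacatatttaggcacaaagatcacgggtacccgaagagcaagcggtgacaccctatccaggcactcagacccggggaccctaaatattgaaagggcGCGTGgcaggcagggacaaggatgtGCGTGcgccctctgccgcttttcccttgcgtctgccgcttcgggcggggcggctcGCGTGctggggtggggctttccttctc
Nqo1: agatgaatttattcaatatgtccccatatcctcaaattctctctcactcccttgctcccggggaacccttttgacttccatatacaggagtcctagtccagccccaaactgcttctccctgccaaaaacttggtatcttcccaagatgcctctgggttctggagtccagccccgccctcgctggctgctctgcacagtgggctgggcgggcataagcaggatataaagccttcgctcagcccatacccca
Ephx1: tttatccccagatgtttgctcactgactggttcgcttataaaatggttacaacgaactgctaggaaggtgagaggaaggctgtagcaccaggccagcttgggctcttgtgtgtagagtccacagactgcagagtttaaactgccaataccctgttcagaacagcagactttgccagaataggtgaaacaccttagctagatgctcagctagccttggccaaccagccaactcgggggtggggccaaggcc

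The Cyp1a1 window held 1 core, at -54 to -50 from the start, on the gene's own strand. Cyp1b1 held 1 core at -76 to -72 and Tiparp 1 at -170 to -166, each on the opposite strand. Ahrr, which encodes a repressor of AhR, held 3 cores, beginning at -107, -82 and -27, and the last was part of the longer form TNGCGTG. Arnt held 1 core at -29 to -25, while Ephx1, Nqo1 and Cyp1a2 held none in this window. Both strands were searched, every TNGCGTG contains a GCGTG, and 28.3% of 32536 RefSeq promoter windows of the same length held GCGTG (4.13% held TNGCGTG). A match of these letters is a description of sequence and not a binding site.

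**Figure D1:**
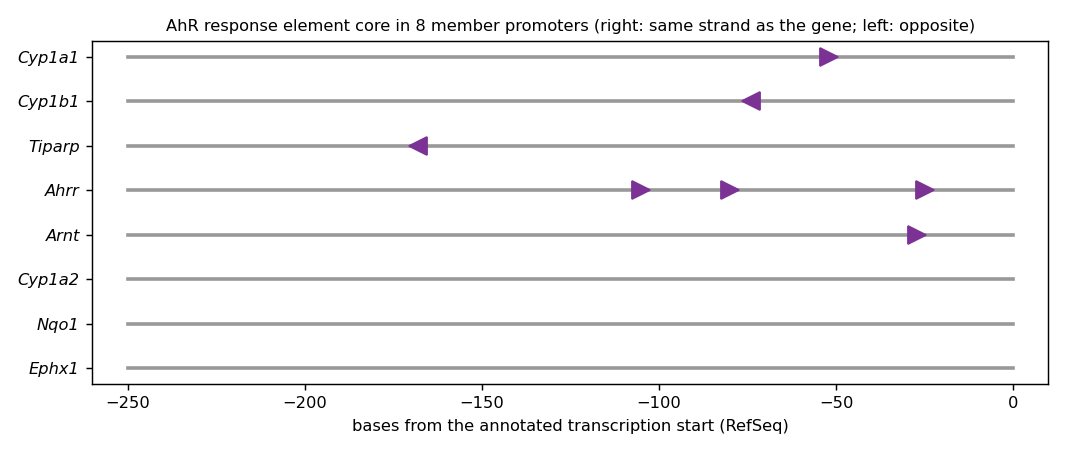
Positions of the GCGTG core in the 250 bases upstream of the RefSeq start of 8 members (x axis, bases from the start; one line per gene). Arrowheads pointing right lie on the gene's strand and those pointing left on the opposite strand; 5 of the 8 windows held at least 1 core, and Ahrr held 3.

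Depth was 7037979 to 8156905 counts per vehicle library, 7086109 to 7958389 per IR library and 6938406 to 7871952 per DMBA library. Levels are given as CPM, counts scaled to the library total with TMM factors, as mean ± SD of 3 libraries, and FPKM, which divides by exonic length, is used where genes are set against each other. All 8 melanocyte lineage markers had counts in every library, and they summed to 1638 ± 21.3 (vehicle), 1761 ± 324 (IR) and 1616 ± 161 FPKM (DMBA). Summed as CPM they were lower in every DMBA library (6867 to 7620) than in every vehicle library (7703 to 7815). The log2 difference was -0.10, with an exact two-sided permutation p of 0.1, the smallest that 3 against 3 libraries can give. EdgeR called 0 of the 8 with DMBA. Keratinocyte transcripts were present too, with 10 basal markers summing to 1164 to 1732 FPKM (vehicle), 614.1 to 2946 FPKM (IR) and 1974 to 3019 FPKM (DMBA). Library IR 1 stood apart from IR 2 and IR 3 by this measure, and results that rest on it are given with and without it. In bulk RNA, fewer cells of a type and less RNA per cell cannot be told apart. Of 9 macrophage and dendritic cell markers, Cd68 (188 to 380 counts) and Cd74 (20 to 364 counts) were present in all 9 libraries. Lyz2 was at 0 in all 9. Csf1r was at 0 in 2 libraries, Cd207 in 3, Ptprc in 4, Itgax in 5, Aif1 in 7 and Adgre1 in 8. The list summed to 26.9 to 50.5 FPKM (vehicle), 21.5 to 55.0 FPKM (IR) and 30.5 to 32.6 FPKM (DMBA). The 6 sebocyte markers summed to 51.9 to 63.5 FPKM (vehicle), 59.5 to 163.4 FPKM (IR, highest in IR 1) and 60.2 to 180.5 FPKM (DMBA, highest in DMBA 2), and DMBA 3 lay inside the vehicle range. Their median log2 fold change with DMBA was 1.09, with 0 called by edgeR, DESeq2 or limma and 2 higher and 0 lower by an unadjusted p below 0.05, Scd1 and Scd3, which were named after their values were seen. The part of these cells in the members' levels was not tested. The fibroblast gene Lum had 0 counts in all 9 libraries. Fibroblast markers summed to 0.04 to 1.46 FPKM, endothelial markers to 0 to 1.07 and T cell markers to 0 to 1.57.

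After DMBA, Cyp1a1, Cyp1b1 and Tiparp rose, and no member fell. After IR, Ephx1 rose alone among the members called. The receptor gene Ahr and its partner Arnt were not called in any comparison. Of the 10 members 9 passed the filter on low counts and were tested among 16051 genes, and Cyp1a2 did not. Ahrr, Cyp1a1 and Nqo1 passed only through their level in DMBA libraries, since 6 members passed when IR and vehicle libraries were filtered alone. A difference was called at an adjusted p under 0.05 in the quasi-likelihood test of edgeR, after Benjamini-Hochberg correction over all genes tested.

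Ahr, on chromosome 12 (35547973 to 35585037, minus strand, as the deposited table gives it; its genome build is not given in the sources used here), was expressed in every library. Its level was 115.0, 91.4 and 124.9 CPM in vehicle 1, 2 and 3. It was 89.8, 96.7 and 98.9 CPM in the IR libraries and 108.9, 100.5 and 119.5 CPM in the DMBA libraries. The DMBA values lay inside the vehicle range, and the IR values lay below every DMBA value but overlapped vehicle. The log2 fold change between DMBA and vehicle was -0.01 ± 0.18 (SE; 95% interval -0.38 to 0.36; edgeR adjusted p = 0.996). Between IR and vehicle it was -0.22 ± 0.18 (edgeR adjusted p = 0.871), and between IR and DMBA -0.20 (edgeR adjusted p = 0.888). An overlapping gene on the opposite strand, Gm48236, had 48 counts summed over the 9 libraries.

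Arnt, which encodes the partner that AhR shares with other PAS proteins, lies on chromosome 3 (95341699 to 95404551, plus strand). Mean levels were 134.8 ± 8.56 CPM for vehicle, 129.3 ± 20.5 CPM for IR and 116.2 ± 15.7 CPM for DMBA. The 3 groups overlapped, with 101.1 CPM in DMBA 1 the lowest and 147.9 in IR 2 the highest. The log2 fold change was -0.21 with DMBA (95% interval -0.58 to 0.16; edgeR adjusted p = 0.875) and -0.06 with IR (edgeR adjusted p = 0.984). Gm42672, a gene on the same strand within its bounds, had 246 counts summed over the 9 libraries, so how the authors divided reads there bears on Arnt.

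Other genes of the receptor complex gave no call. Of 11 tested genes for chaperones and PAS partners, edgeR called 0 in each comparison, and neither DESeq2 nor limma called any. With DMBA Hsp90ab1 was higher and Arnt2 lower by an unadjusted p below 0.05, and the median log2 fold change was -0.01, beside 0.01 over all genes. Highest by mean FPKM were the HSP90 genes and the co-chaperone gene Ptges3. Hsp90ab1 averaged 1439 ± 55.5 CPM in vehicle and 1787 ± 208 in DMBA libraries (edgeR adjusted p = 0.735). Hsp90aa1 averaged 580.7 ± 66.7 and 660.6 ± 61.3 CPM, and Ptges3 83.7 ± 10.6 and 83.3 ± 18.0 CPM.

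Ahrr encodes the AhR repressor, an AhR-induced protein that competes for ARNT and the response element (chromosome 13, 74359237 to 74440450, minus strand). It had 0 counts in each vehicle library. IR 1, 2 and 3 held 1, 0 and 6 counts, and DMBA 1, 2 and 3 held 54, 34 and 76. Every DMBA library was above every other library. Summed over the group, DMBA stood 55.1-fold above a floor of 3 counts over the vehicle libraries. The exact 95% lower limit of its ratio to vehicle, which also counts the error of the DMBA counts, was 44.3. DMBA was 23.5 times IR (95% counting interval 11.2 to 59.5). The ratio to IR rested on IR 3, which held 6 of the 7 IR counts: the fitted log2 fold change of IR against DMBA, -4.41, was -6.49 without it, and neither was called (edgeR adjusted p = 0.244 and 0.183). The difference from vehicle was not called (edgeR adjusted p = 0.325), while DESeq2 called it. Such intervals and floors cover counting error only.

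Tiparp encodes an ADP-ribosyltransferase that modifies AhR and limits its action (chromosome 3, 65435831 to 65462939, plus strand). Its level was 161.3, 200.6 and 186.4 CPM in vehicle 1, 2 and 3, and 145.3, 146.9 and 169.9 CPM in the IR libraries. The DMBA libraries held 395.7, 308.8 and 341.9 CPM, all above every vehicle and IR library. It rose with DMBA by 0.93 ± 0.16 on the log2 scale (ratio of summed counts 1.96, 95% counting interval 1.89 to 2.04; edgeR adjusted p = 0.0358). On the log2 scale IR differed from vehicle by -0.25 (edgeR adjusted p = 0.773). The call with DMBA was lost when any single vehicle or DMBA library, or IR 3, was left out and in all 3 limma fits, with adjusted p up to 0.262 over all alternatives, while the log2 fold change stayed between 0.83 and 1.01. 4931440P22Rik, on the opposite strand of the same stretch, had 463 counts summed over the 9 libraries, and no source used here says whether counting was by strand.

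The cytochrome P450 genes of the CYP1 family add oxygen to aromatic hydrocarbons. Cyp1a1 (chromosome 9, 57595211 to 57611107, plus strand) had 2, 1 and 1 counts in vehicle 1, 2 and 3 and 0, 2 and 2 in IR 1, 2 and 3. DMBA 1, 2 and 3 had 1270, 2298 and 1881 counts, or 163.1, 294.6 and 258.2 CPM. Cyp1a1 was thus near 0 in 6 libraries and abundant in the other 3. The ratio of DMBA to vehicle counts, scaled to library size, was 1373 (95% counting interval 536 to 5042), a difference of 10.26 ± 0.43 on the log2 scale in the fit (edgeR adjusted p = 7.15e-11). It was called in all 20 alternative settings. Between IR and vehicle, with 4 counts in each group, a ratio of 1.00 had a counting interval of 0.187 to 5.39, which is as much as this depth can resolve.

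Cyp1a2, whose product oxidizes aromatic amines and is best known from liver, lies 4224 bases from Cyp1a1 on the opposite strand (chromosome 9, 57584220 to 57590986). It had 0 counts in the vehicle and IR libraries, 1 count in DMBA 1, 1 in DMBA 2 and 0 in DMBA 3. A count of 0 over a group allows up to 0.132 CPM (a floor of 3 counts over the group). The neighbours therefore stood far apart in DMBA cells, at 86.9 ± 24.6 FPKM for Cyp1a1 and 0.04 ± 0.03 FPKM for Cyp1a2.

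Cyp1b1, the family member typical of tissues outside the liver, is on chromosome 17 (80008966 to 80022490, minus strand). Its level was 14.1, 1.21 and 8.19 CPM in vehicle 1, 2 and 3, and 8.75, 3.25 and 2.45 CPM in the IR libraries. DMBA 1, 2 and 3 held 124.2, 138.2 and 105.4 CPM, and no DMBA library came near the others. The log2 fold change with DMBA was 3.96 ± 0.55 (edgeR adjusted p = 0.00868), and the ratio of summed counts was 15.7 (95% counting interval 13.5 to 18.3). The fitted log2 fold change was 4.71 without vehicle 1 (edgeR adjusted p = 0.00577) and 3.44 without vehicle 2 (edgeR adjusted p = 0.00462). The call was lost in limma on log2(FPKM + 1) and on log2(FPKM + 0.1), with limma adjusted p of 0.0763 and 0.285. The IR and vehicle groups overlapped (log2 fold change -0.69; edgeR adjusted p = 0.86). Relative to the mean, vehicle libraries differed among themselves by more than those of DMBA. The SD was 6.46 on a mean of 7.84 CPM in vehicle and 16.4 on 122.6 CPM in DMBA.

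Aldh3a1 encodes an aldehyde dehydrogenase that oxidizes aromatic and lipid-derived aldehydes (chromosome 11, 61098363 to 61109247, plus strand). Vehicle 1, 2 and 3 held 8.59, 11.3 and 14.8 CPM, IR 1, 2 and 3 held 30.2, 4.47 and 2.16 CPM, and DMBA 1, 2 and 3 held 67.3, 106.5 and 126.1 CPM. All DMBA libraries were above the rest, and IR 1 was above every vehicle library while IR 2 and IR 3 were below them. The log2 fold change with DMBA was 3.11 ± 0.61 and was not called (edgeR adjusted p = 0.126). Without IR 1, which enters the shared estimate of spread, it was 3.10 and called (edgeR adjusted p = 7.33e-06), as it was without IR 2 (edgeR adjusted p = 0.0135) or IR 3 (edgeR adjusted p = 0.0125). Without IR 1 the IR value also became a fall by 1.79 against vehicle (edgeR adjusted p = 0.0226) in place of 0.10 (edgeR adjusted p = 0.995).

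Nqo1 encodes a quinone reductase that responds both to AhR and to NRF2, the factor of the antioxidant response (chromosome 8, 108114857 to 108129838, minus strand). It was scarce, with 15, 1 and 17 counts in vehicle 1, 2 and 3, 3, 2 and 7 in IR, and 54, 28 and 72 in DMBA libraries. The DMBA counts lay above all others, although vehicle 2 differed widely from vehicle 1 and 3. The ratio of DMBA to vehicle was 4.70 (95% counting interval 3.21 to 7.08), the log2 fold change was 2.20 ± 1.10 and no call was made (edgeR adjusted p = 0.748).

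Ephx1 encodes microsomal epoxide hydrolase, which opens epoxides made by cytochromes P450 (chromosome 1, 180803775 to 180848469, minus strand). It was 39.7, 37.7 and 16.1 CPM in vehicle 1, 2 and 3, and 260.3, 256.5 and 156.8 CPM in IR 1, 2 and 3. DMBA 1, 2 and 3 held 27.2, 33.7 and 60.5 CPM and overlapped vehicle, whereas every IR library was above all others. Ephx1 rose with IR by 2.85 ± 0.33 on the log2 scale (ratio of summed counts 7.11, 95% counting interval 6.57 to 7.70; edgeR adjusted p = 7.07e-05) and was called in all 20 alternatives. With DMBA it stood 0.37 ± 0.32 above vehicle on the log2 scale, without a call (edgeR adjusted p = 0.88).

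**Figure D2:**
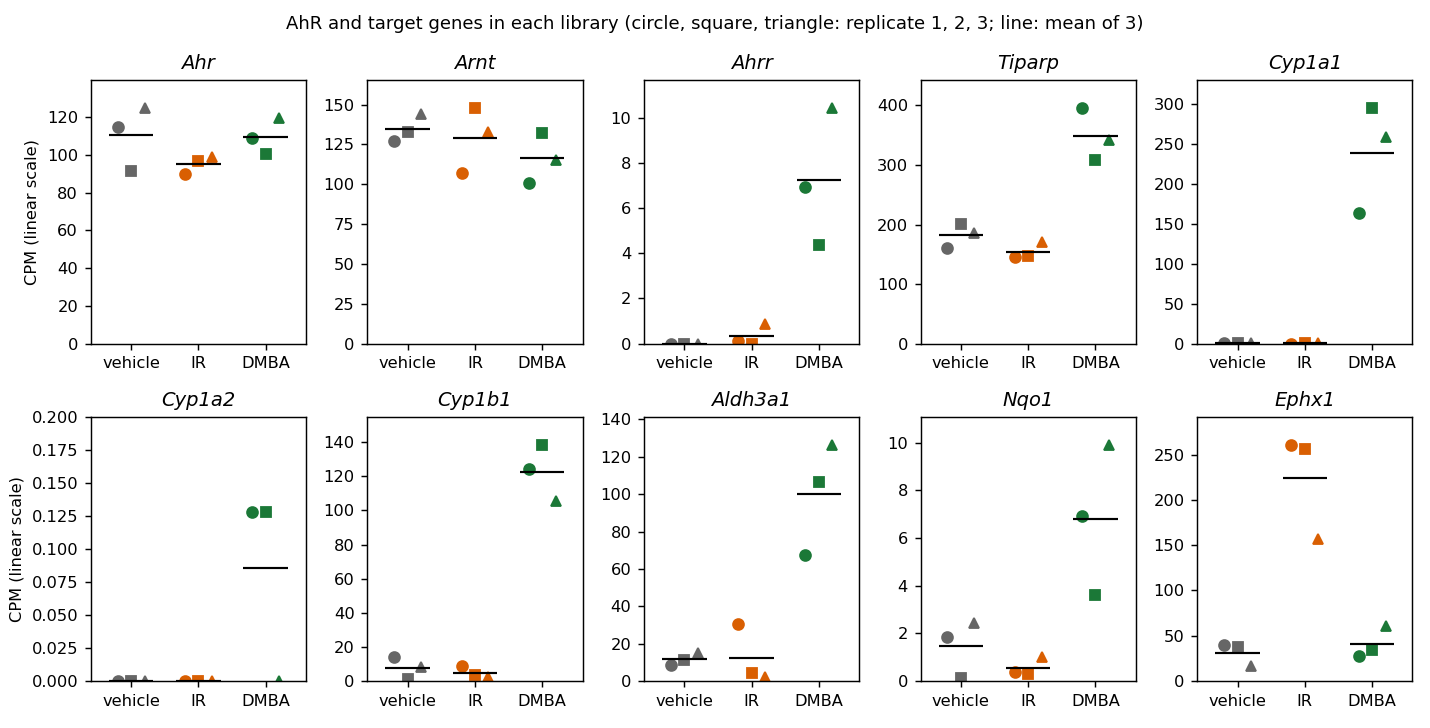
CPM of the 10 members in each of 9 libraries (y axis, linear, a scale of its own per gene), grouped as vehicle, IR and DMBA; symbols give the replicate number and lines the mean of 3. Cyp1a1, Cyp1b1, Tiparp, Ahrr, Aldh3a1 and Nqo1 lie higher in all 3 DMBA libraries, Ephx1 in all 3 IR libraries, and Cyp1a2 never exceeds 1 count.

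With DMBA against vehicle, 3 of 9 tested members were called higher, where the share over all genes was 0.0374%, and 0 were called lower, where it was 0%. By an unadjusted p below 0.05, 5 members were higher and 0 lower, beside 618 higher and 458 lower among all 16051 genes, and DESeq2 called 4 members higher and 0 lower, beside 21 and 2 of all genes. In 6 members every DMBA library was above every vehicle library (7.51% of all genes), and in 0 was it below (6.19%). Ahrr, Cyp1a1 and Nqo1 are among these 6, and they entered the test through the DMBA libraries alone. With IR against vehicle, 1 member was called higher (0.71% of all genes) and 0 lower (0.0249%), with 2 higher and 0 lower by an unadjusted p below 0.05 (791 and 535 of all genes), and 1 and 0 by DESeq2 (217 and 32 of all genes). Those 2 were Ephx1 and Ahrr (edgeR unadjusted p = 0.0336 for Ahrr). Ahrr overlapped vehicle, had 6 of its 7 IR counts in IR 3 and entered the test through the DMBA libraries alone. The IR libraries did not overlap vehicle in 1 member in the upward direction (7.67% of all genes) and in 0 downward (6.16%).

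IR and DMBA were also compared directly. Ephx1 was higher after IR by 2.47 ± 0.33 on the log2 scale (edgeR adjusted p = 0.000235). Cyp1a1, Cyp1b1, Tiparp and Aldh3a1 were lower after IR than after DMBA. The log2 fold changes were -10.25 for Cyp1a1 (edgeR adjusted p = 7.34e-11), -4.65 ± 0.58 for Cyp1b1 (edgeR adjusted p = 0.000108) and -1.18 ± 0.16 for Tiparp (edgeR adjusted p = 0.000266). For Aldh3a1 it was -3.01 ± 0.61 (edgeR adjusted p = 0.0154), -4.89 without IR 1, and -2.80 and not called without DMBA 3 (edgeR adjusted p = 0.0871). The Aldh3a1 call was also lost in limma with pseudocounts of 1 and 0.1 (limma adjusted p = 0.0644 and 0.0983) and with only these groups in the fit (edgeR adjusted p = 0.0666). Without IR 1, Cyp1b1 stood at -5.40 and Cyp1a1 at -9.64, both still called. Thus 1 member was called higher (0.878% of all genes) and 4 lower (0.0997%), while 1 did not overlap upward (7.89%) and 7 did not overlap downward (6.98%). Ahrr, Cyp1a1 and Nqo1 are among these 7, and Cyp1a1 among the 4 called lower. All of these entered the test through the DMBA libraries alone, which favours this direction. Each group enters more than 1 comparison, so the comparisons share libraries and are not independent, and the 2 treatments may not be matched in time.

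**Figure D3:**
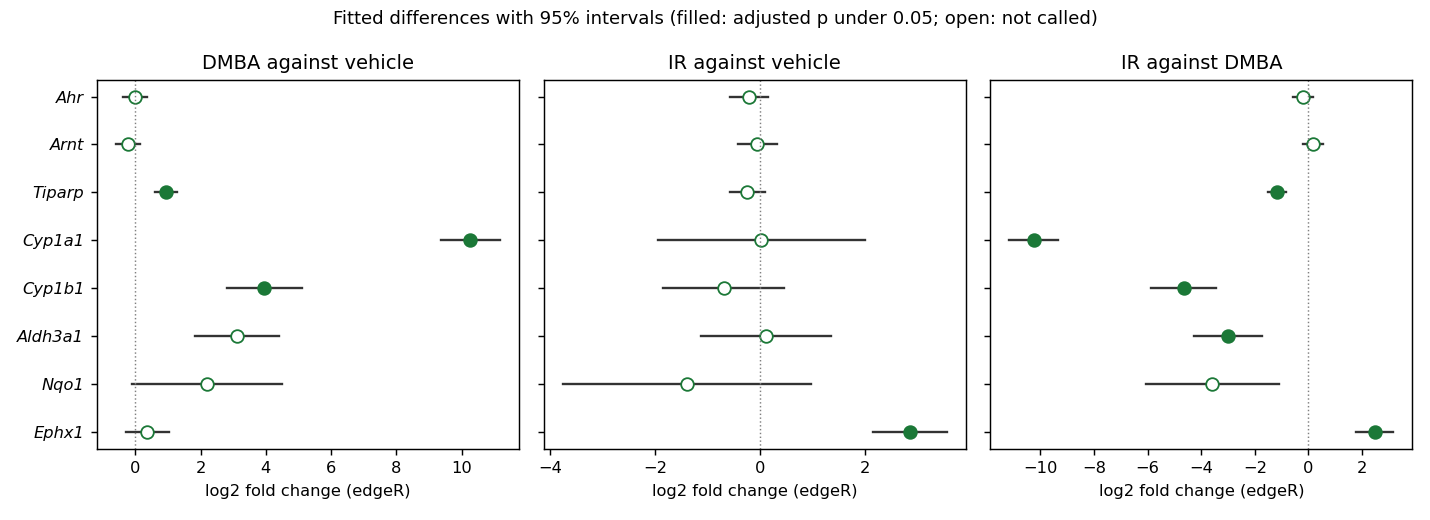
Fitted log2 fold changes (x axis, a range of its own per panel) of 8 tested members with 95% intervals from edgeR, for DMBA against vehicle, IR against vehicle and IR against DMBA; filled points were called. Cyp1a1 at 10.26, Cyp1b1 at 3.96 and Tiparp at 0.93 are filled with DMBA, and only Ephx1 at 2.85 with IR. Ahrr, with 0 vehicle counts, and Cyp1a2, not tested, are not drawn.

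Set against each other per exonic length, the order of the members differed among groups. In vehicle Tiparp was first at 41.5 ± 4.24 FPKM. Ahr at 17.8 ± 2.82, Arnt at 16.7 ± 1.00 and Ephx1 at 15.8 ± 6.68 FPKM followed, with ranges that overlapped from one to the next. Aldh3a1 at 5.90 ± 1.57 FPKM came next, then Cyp1b1 at 1.33 ± 1.11 and Nqo1 at 0.943 ± 0.763, whose ranges overlapped. The lowest Nqo1 library and the highest Cyp1a1 library were both at 0.09 FPKM. Cyp1a1 at 0.06 FPKM, Cyp1a2 and Ahrr were at the bottom. In IR libraries Ephx1 led at 113.5 ± 30.3 FPKM, apart from Tiparp at 34.8 ± 2.96, and Arnt, Ahr, Aldh3a1, Cyp1b1 and Nqo1 followed, each overlapping the next. In DMBA libraries Cyp1a1 at 86.9 ± 24.6 and Tiparp at 81.3 ± 10.6 FPKM overlapped at the top, above Aldh3a1 at 52.5 ± 16.8. Cyp1b1 and Ephx1, both at 21.3 FPKM, Ahr at 18.1 and Arnt at 14.7 FPKM overlapped from one to the next, and Nqo1 at 4.49, Ahrr at 0.787 and Cyp1a2 at 0.04 FPKM were lowest.

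**Figure D4:**
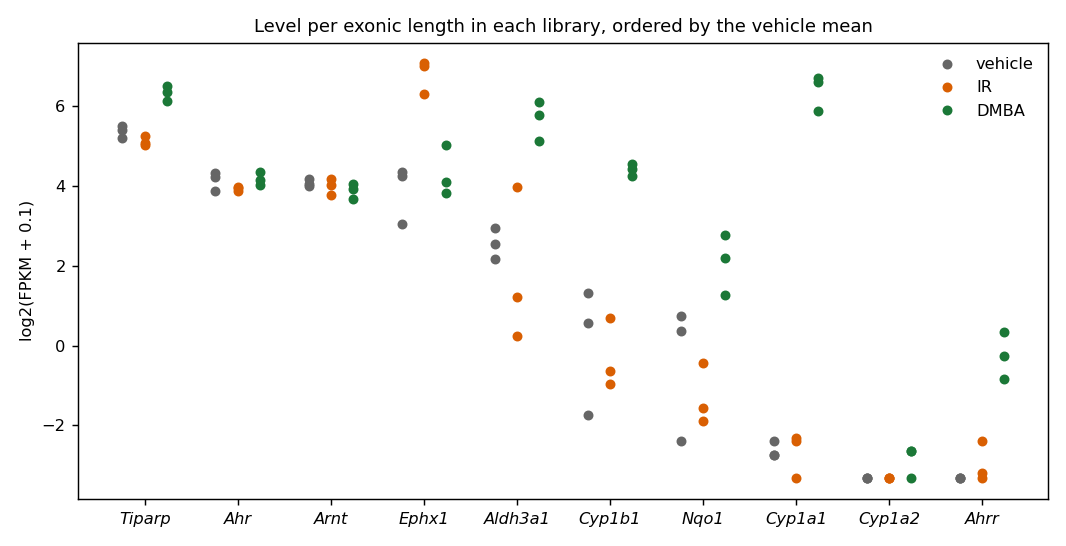
Level per exonic length, log2(FPKM + 0.1), of each member in each library, with genes ordered by their vehicle mean. The lowest marks stand for 0 FPKM; Cyp1a1 moves from a vehicle mean of 0.06 to a DMBA mean of 86.9 FPKM, and Ephx1 from 15.8 to an IR mean of 113.5 FPKM.

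Genes with the most similar profile were sought as the smallest root mean square difference of centred log2(CPM + 1) over the 9 libraries, among tested genes with a symbol and at least 0.25 times the member's mean CPM. The nearest to Cyp1a1 were Cyp1b1 (1.75), Adh7 (2.2) and Aldh3a1 (2.26), all well short of its steepness, its own spread being 3.60. Adh7 (0.959), Aldh3a1 (1.04) and Sox21 (1.25) were nearest to Cyp1b1, whose own spread was 2.21. For Tiparp they were Mef2c (0.204), Lrrc8d (0.214) and Adssl1 (0.216), against a spread of 0.520. For Ephx1 they were Trp53inp1 (0.478), Sesn2 (0.496) and Vcam1 (0.524), against a spread of 1.36. Aldh3a1 was nearest to Sox21 (0.800), Pou2f3 (0.834) and Fam83c (0.858), against a spread of 1.79. Nqo1 was nearest to Mmp17 (0.455), H4c18 (0.464) and Gm42841 (0.470), against 1.10. Ahr and Arnt varied little, by 0.159 and 0.175, and were nearest to Rbm33 (0.0991), Plscr4 (0.104) and Smc3 (0.107), and to Pkd1 (0.0740), Brwd1 (0.0898) and Ahctf1 (0.0901).

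Further genes known to be induced through AhR did not pass the test with DMBA. Of 10 tested, edgeR called 0. By an unadjusted edgeR p below 0.05, 4 were higher and 0 lower, beside 618 and 458 of all 16051 genes. DESeq2 called 1 of the 10 higher. Their median log2 fold change was 0.81, beside 0.01 over all genes. The most abundant were the amino acid transporter gene Slc7a5, at 250.1 ± 13.0 CPM in vehicle and 258.8 ± 17.0 with DMBA, and Nfe2l2, which encodes NRF2, at 205.7 ± 25.1 and 268.8 ± 49.6 CPM. Cdkn1b, which encodes the cell cycle inhibitor p27, was at 185.6 ± 10.1 and 241.8 ± 11.2 CPM (edgeR adjusted p = 0.668). Xdh, the xanthine dehydrogenase gene called by DESeq2 and named after its values were seen, was at 4.99 ± 2.08 and 29.9 ± 5.03 CPM (edgeR adjusted p = 0.0705). With IR 0 of the 10 were called by edgeR, DESeq2 or limma, 1 was higher and 0 lower by an unadjusted p below 0.05, and the median was 0.11.

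Among 22 tested genes for other enzymes that handle aromatic hydrocarbons and their products, 1 rose with DMBA and 0 fell. Over all genes 0.0374% were called higher and 0% lower. By an unadjusted edgeR p below 0.05, 4 of the 22 were higher and 0 lower, beside 618 and 458 of all 16051 genes. This list was written with earlier results of these data known, so its counts are no independent support. The gene that rose was Adh7, an alcohol dehydrogenase that oxidizes retinol, from 4.33 ± 3.27 CPM in vehicle to 71.1 ± 24.6 with DMBA, by 4.04 ± 0.58 on the log2 scale (edgeR adjusted p = 0.00916). It averaged 9.89 ± 6.62 CPM after IR. DESeq2 called 2 of the 22 higher, Adh7 and Ugt1a7c (the latter named after its values were seen), and 0 lower. The median log2 fold change of these enzyme genes was 0.31 with DMBA and 0.06 with IR, beside 0.01 and 0.00 over all genes. Of 14 tested NRF2-regulated genes, which share that factor with Nqo1, 0 were called by edgeR, DESeq2 or limma in either comparison with vehicle. With DMBA 3 were higher and 0 lower by an unadjusted p below 0.05 (median 0.44 on the log2 scale), and with IR 1 was higher and 0 lower (median 0.31). Nfe2l2, which is also in the list of AhR-induced genes, Txnrd1 (thioredoxin reductase) and Prdx1 (a peroxiredoxin) were highest by mean FPKM. Txnrd1 averaged 212.5 ± 36.6, 247.1 ± 42.4 and 202.3 ± 97.1 CPM, and Prdx1 82.8 ± 7.32, 96.9 ± 15.9 and 97.9 ± 11.1 CPM, in vehicle, IR and DMBA libraries.

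A list of 14 p53 target genes was read beside Ephx1, which rose in the irradiated cells. It too was written with earlier results of these data known, so its counts are no independent check. All 14 were called higher with IR (median 2.50 on the log2 scale), and 0 were called with DMBA (median 0.11), with 3 higher and 0 lower by an unadjusted p below 0.05. With IR 0.71% of all genes were called higher, and DESeq2 called 14 and limma 11 of the 14. DESeq2 and limma called 0 of them with DMBA.

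The summed levels of keratinocyte markers were above every vehicle library in all 3 DMBA libraries, but no marker was called by edgeR. On the log2 scale, the summed CPM of 10 basal keratinocyte genes exceeded that of vehicle libraries by 0.64 in the DMBA libraries, and the sum of 10 differentiated epidermis genes did so by 1.36. Each difference had an exact two-sided permutation p of 0.1, the smallest that 3 against 3 libraries can give. The differentiated markers summed to 564.2 ± 55.8 (vehicle), 797.3 ± 636 (IR) and 1501 ± 331 FPKM (DMBA). EdgeR called 0 of the 10 basal and 0 of the 10 differentiated markers, 5 and 7 were higher and 0 lower by an unadjusted p below 0.05, and DESeq2 called 1 differentiated marker, Casp14.

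Among the libraries without DMBA, IR 1 had a basal sum of 2946 FPKM and a differentiated sum of 1479 FPKM, which lay inside the DMBA ranges of 1974 to 3019 and 1239 to 1873. In that library Cyp1a1 had 0 counts, Ahrr 1 count and Nqo1 3 counts. Cyp1b1 was at 8.75 CPM, Tiparp at 145.3 CPM and Aldh3a1 at 30.2 CPM, each below every DMBA library. IR 1 received no DMBA, so these values do not show the level in keratinocytes exposed to it. With the log2 level of differentiated markers as a covariate, Cyp1a1 stayed called (log2 fold change 9.90; edgeR adjusted p = 7.53e-07), and Cyp1b1 had a log2 fold change of 3.21 and was no longer called (edgeR adjusted p = 0.0666). Tiparp had 0.97 (edgeR adjusted p = 0.158) and Aldh3a1 1.78 (edgeR adjusted p = 0.774). With the basal markers as covariate Cyp1a1, Cyp1b1 and Tiparp were all called. Both marker sums were above every vehicle library in all 3 DMBA libraries. Covariate and DMBA are therefore confounded, and these fits cannot tell them apart. Which cells held the CYP1 transcripts was not tested.

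**Figure D5:**
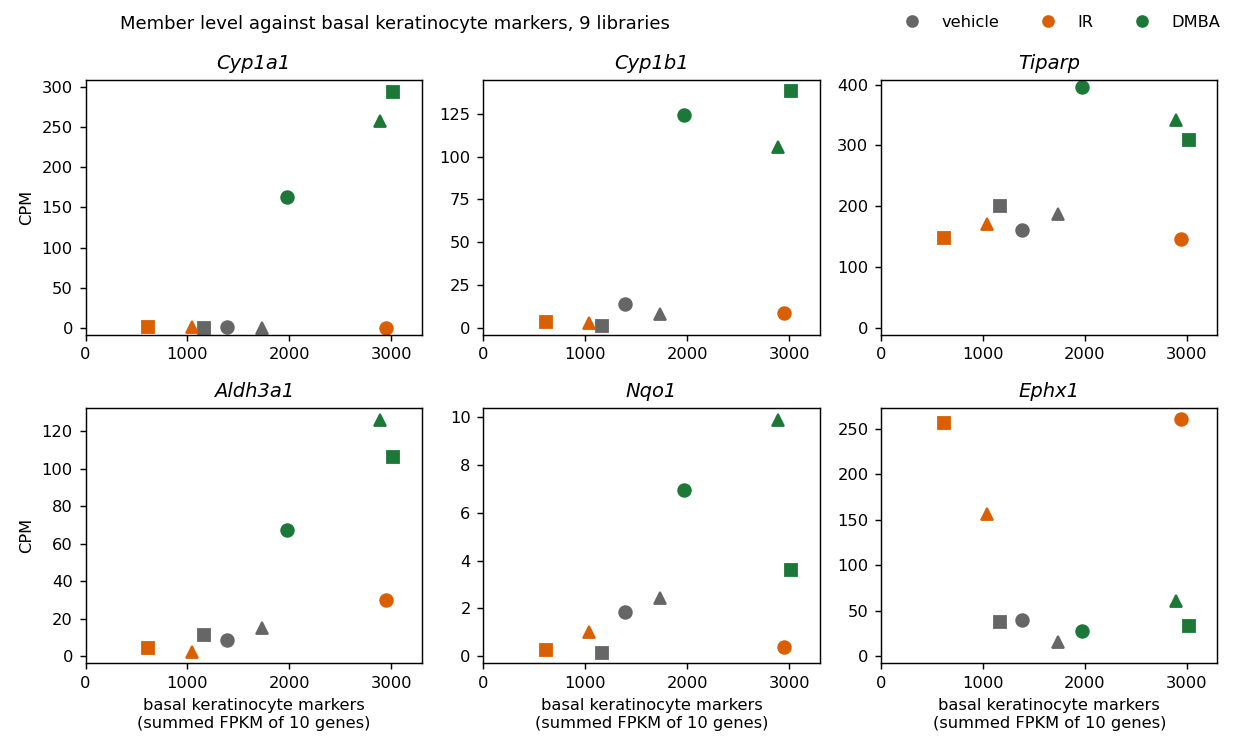
CPM of 6 members (y axes, linear, a scale of their own) against the summed FPKM of 10 basal keratinocyte markers (x axis) in 9 libraries, coloured by group; circles, squares and triangles are replicates 1, 2 and 3. The circle for IR 1, at 2946 FPKM, lies among the DMBA libraries on the x axis. It stands at 0 counts for Cyp1a1 and 8.75 CPM for Cyp1b1. IR 1 received no DMBA, so it does not show the level in keratinocytes exposed to it.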

How the data were processed

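RNA was measured in 9 libraries of sorted melanocyte stem cells, made with a SMARTer stranded kit per the labels' protocols. The submitters' processing notes name HISAT2 2.0.1, HTSeq 0.6.1, cutadapt 1.9.1 and bcl2fastq 2.17.1.14, without their roles. Build, annotation and whether counting used strand: not given in the sources used here. The authors deposited raw counts of reads per gene, without normalization. They also deposited FPKM, which agreed within 0.005 with values recomputed from the counts, exonic lengths and library totals.

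Members, gene lists and the rule for named genes were chosen with earlier results of these data known. The rule took all 10 members and, from each list, the called genes or else the 3 with the highest mean FPKM. The test was that of edgeR 4.0.16 under R 4.3.3 (filterByExpr, TMM, 1 mean per group, all 9 libraries, quasi-likelihood test, two-sided, Benjamini-Hochberg adjustment). The standard error was the log2 fold change divided by the square root of F. The test was tried on simulated counts with 200 genes changed. The outcome of that trial is not given here, and no result rests on it. Ratios of summed counts carry exact 95% intervals. Replicates of a group were not duplicates, with chi-square per degree of freedom of 15.95 to 39.7 between libraries. Alternatives changed the filter, scaling, libraries, replicate block, a keratinocyte covariate and the tool: DESeq2 1.42.0, or limma 3.58.1 on log2(FPKM + 1), with 0.1 and 5 as other pseudocounts and at least 1 FPKM in 3 libraries. Sequences came from RefSeq tables and a comparison of protein sequences was not run.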

Additional observations from a re-analysis of the deposited data

How the results depend on the processing

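Cyp1a1 with DMBA and Ephx1 with IR were called in all 20 alternatives, and Cyp1b1 with DMBA in 17 and Tiparp in 8 of 20. With DMBA against vehicle the number of members called, 3 with the settings of the report, was 5 with no filter (Ahrr and Aldh3a1 added), 5 with only the 2 groups in the fit, 4 with DESeq2, 1 with limma at a pseudocount of 1 or 0.1, 1 with the differentiated epidermis covariate and 2 to 4 with 1 library left out. With IR against vehicle it was 1, and 1 to 2 with 1 library left out, the 2 being without IR 1 (Aldh3a1 lower). With IR against DMBA it was 5, and 4 to 7 over all alternatives.

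Over all genes, 118 were called for IR against vehicle, 236 with no filter, 249 with DESeq2, 69 with limma at a pseudocount of 0.1 and 76 to 131 with 1 library left out (76 without vehicle 3). For DMBA against vehicle, 6 were called, 159 with no filter, 23 with DESeq2, 1 with limma at 1 or 0.1 and 2 at 5, 44 with only the 2 groups, 2 with the differentiated epidermis covariate, and 2 to 25 with 1 library left out (25 without IR 1, 16 without IR 2, 2 or 3 without vehicle 1, vehicle 2, DMBA 1 or DMBA 3). For IR against DMBA, 157 were called, 371 with no filter, 301 with DESeq2, 89, 73 and 101 with limma at 1, 0.1 and 5, and 96 to 421 with 1 library left out (421 without IR 1, 99 without IR 2, 96 without DMBA 3).

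Signs changed only in differences that the report does not call. Ahr with DMBA (-0.01) became 0.0280 with library totals, 0.0312, 0.0331 and 0.0248 with limma at 1, 0.1 and 5, 0.00126 and 0.0326 with the basal and differentiated covariates, and -0.142 to 0.0869 with 1 library left out. Aldh3a1 with IR (0.10) became -0.49, -0.73 and -0.16 with limma at 1, 0.1 and 5, -0.24 with the replicate block, -0.50 and -0.51 with the covariates, and -1.79 to 0.59 with 1 library left out. Cyp1a1 with IR (0.02) became -0.00109, -0.0566 and -4.71e-05 with limma at 1, 0.1 and 5, -0.00518 with the block, -0.0258 and -0.0441 with the covariates, and -0.40 to 0.61 with 1 library left out. Arnt was -0.000959 for IR against DMBA with the differentiated covariate and -0.17 to 0.0587 for IR against vehicle with 1 library left out, Cyp1b1 with IR -1.46 to 0.0638 and Ephx1 with DMBA -0.0467 to 0.60. The cause of these changes was not tested.

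No pairing of libraries across groups by replicate number was seen: deviations from the group means of same-numbered libraries correlated between -0.116 and 0.0474. Libraries with different numbers correlated between -0.0628 and 0.127. Such weak correlations cannot exclude a shared batch. With the replicate block 2 members were called for DMBA against vehicle (Tiparp lost), 1 for IR against vehicle and 5 for IR against DMBA, and over all genes 5, 107 and 142. Depth limits Ahrr, Cyp1a1 and Cyp1a2 outside DMBA libraries, where 3 counts over a group equal 0.132 CPM.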
